A study of Saccharomyces cerevisiae with 51 samples.

Results

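*SUB1* (YMR039C) encodes a yeast transcription factor, and 3 views of the gene were taken from the deposited data: the barcode counts of its deletion mutant, the RNA that covers its locus, and the binding of its own tagged product there. The members were the YMR039C row among 6128 deletion mutants and 19 bins of 100 bp on chromosome XIII, listed at positions 348.2 to 350.0 kb of the SacCer2 build, among 121587 bins listed in any RNA-Seq or ChIP-Seq library. Of these 19 bins, the 9 at 348.7 to 349.5 kb were chosen as the run that loses its reads in *sub1*Δ, so that loss is a description and not a finding. The C of YMR039C places the gene on the Crick strand, which puts its 3′ end at the lower coordinates. In a gene table of another assembly, used for names and order only, *CCS1* and then *MSN2* follow toward lower coordinates, and *YET2* and then *ARA2* toward higher ones. By the W of YMR040W, *YET2* is on the Watson strand, so the region between *SUB1* and *YET2* is upstream of both. No annotation of SacCer2 was used, so exons and untranslated regions of *SUB1* were not placed on the bins. Bins are named below by their listed position in kb. Its DNA and protein sequences were not used here.

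Sub1 is the yeast relative of the human coactivator PC4. It binds single-stranded DNA, associates with promoters of genes transcribed by RNA polymerase II, and interacts with the initiation factor TFIIB. It has also been linked to RNA polymerase III transcription, to elongation, to the choice of transcription start sites, and to the factors that cleave and polyadenylate mRNA at the 3′ end of genes.

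The series measured these layers in *MAT*a haploid *Saccharomyces cerevisiae*. In Bar-Seq, the pooled deletion library carrying GFP under the *FUS1* promoter, integrated at *BAR1*, was grown uninduced (Un) or with 10 nM α-factor, the mating pheromone, for 120 min (In), and cells without GFP (Gfp-) were sorted and regrown to saturation before their DNA was taken. Each sorted pool and each unsorted pool (presort) had 3 replicates. RNA-Seq compared a wild-type strain with an isogenic spore in which *kanMX* replaced *SUB1*, both with the reporter in place of *BAR1*, after vegetative growth, after 10 nM α-factor for 45 min, and after 45 min in 1 M sorbitol or in fresh medium. ChIP-Seq used a strain with a C-terminal 3HA tag on Sub1 at the native locus and an untagged strain, both with the reporter. The untagged library came from untreated vegetative cells, so the treated libraries have no untagged library of their own treatment. In the study's strain list the tag comes with a *kanMX* marker, which the untagged strain lacks. The untagged strain is a transformed haploid and the tagged one a spore of a transformed diploid, and their other listed markers differ too. The tagged protein retains some Sub1 function according to the study's methods, so these libraries show binding by a tagged protein of partial function. Tagged cells were exposed to the pheromone at 10 nM during 30 min or to 1 M sorbitol during 5 min, each with an untreated control. Each of the 8 RNA-Seq and 5 ChIP-Seq conditions is a single library, so no test compares these conditions. The 95% intervals given for them are exact binomial intervals that cover counting error only.

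A label of the ChIP-Seq series is contradictory. The library titled and described as the sorbitol control carries a treatment text naming 1 M sorbitol, while the library titled 1 M sorbitol carries one naming fresh medium. Groups follow the titles here, and every value of this pair depends on that choice. Bar-Seq libraries held 192483 to 13140634 reads. RNA-Seq libraries held 28754973 to 39497371 reads over their bins and ChIP-Seq libraries 24964958 to 48775730, as recovered from the deposited values. Replicate 1 of Bar-Seq was run on another instrument model than the other two, and the study's methods call the replicates biological.

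*The deletion mutant in the sorted pools.* The *sub1*Δ mutant was common before sorting and nearly absent from the cells without GFP, with or without α-factor. UPTAG and DNTAG are the barcodes that mark the mutants of the library. All reads of *sub1*Δ came from the UPTAG, with 0 DNTAG reads in every library. Of the tested neighbouring deletions, *ccs1*Δ and *yet2*Δ also had 0, and *msn2*Δ had reads of both tags. Among the 3412 mutants that averaged 50 reads or more in both presorted groups, 195 (5.72%) likewise had no DNTAG read before sorting. Before sorting, the uninduced libraries held 783, 513, and 227 reads of *sub1*Δ, and the induced ones 967, 493, and 129. As CPM, read counts scaled to the library total, these were 141, 281, and 91.1 in Un presort and 92.4, 85.1, and 236 in In presort. The library totals count both tags, and the UPTAG gave 20.2% to 67.4% of the reads of these 6 libraries. Scaled to UPTAG reads alone, *sub1*Δ had 258, 418, and 451 CPM in Un presort and 239, 410, and 419 in In presort, a narrower range. In each presorted library, between 42.7% and 72.4% of the mutants with reads had fewer than *sub1*Δ.

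In Un Gfp-, *sub1*Δ had 3, 1, and 0 reads, and in In Gfp- it had 0, 0, and 1. No sorted library overlapped a presorted one, but the share of mutants that separate likewise was not counted, so nothing is read from this. Summed over replicates, 4 sorted reads stood against 1523 presorted ones in the uninduced cultures, a ratio of shares of 0.00346 (95% interval 0.000943 to 0.00889). In the induced cultures 1 read stood against 1589, and the ratio of shares was 0.000715 (1.81e-05 to 0.00399). Low ratios were common, since the median mutant had a ratio of 0.0167 without α-factor and 0.00926 with it. In Un Gfp-, 217 of 3414 mutants tested (6.36%) had a ratio at or under that of *sub1*Δ. For the induced pool this number was 168 of 3553 (4.73%). On UPTAG reads and totals, chosen after seeing the data, the ratio for *sub1*Δ was 0.00597 (95% interval 0.00162 to 0.0153) in Un Gfp- and 0.000537 (1.36e-05 to 0.00300) in In Gfp-. By that measure 552 of 3316 mutants (16.6%) and 866 of 3446 (25.1%) were at or under it, so the place of *sub1*Δ among the mutants depends on the tags counted.

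**Figure D1:**
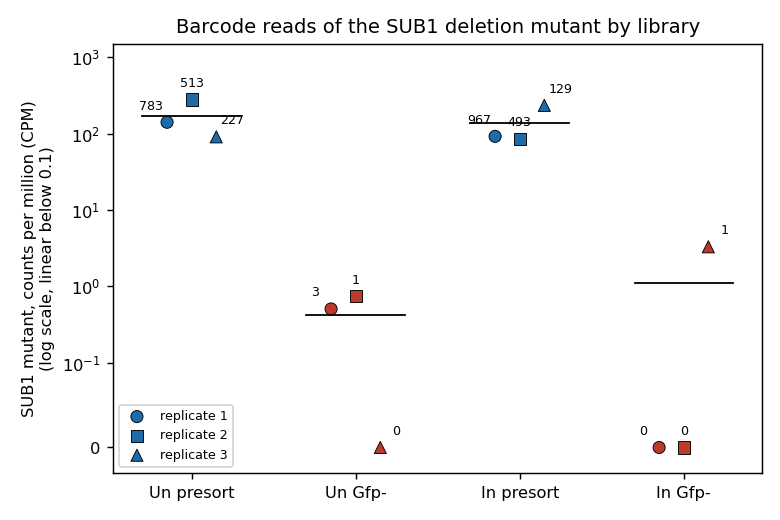
CPM of the *SUB1* deletion mutant in each Bar-Seq library (y axis, log scale that is linear below 0.1) for the 4 pools (x axis). Symbols are replicates labelled with their read counts and lines are pool means. The presorted libraries hold 129 to 967 reads and the sorted ones 0 to 3.

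With TMM normalization, which centres on the bulk of mutants, the edgeR quasi-likelihood test gave a log2 fold change of −2.97 ± 0.85 (SE, n = 3 against 3) for *sub1*Δ in Un Gfp- at an adjusted p of 0.0418, while the median of all mutants was −0.55. Depletion passed the test for 180 of 3414 mutants (5.27%). With α-factor the log2 fold change was −4.74 ± 1.27 (SE, n = 3 against 3) at an adjusted p of 0.0124 by the same test, with a median of −0.69, and 359 of 3553 mutants (10.1%) were called depleted. The size of these fitted values depends on the handling of counts near 0. On UPTAG reads alone the log2 fold changes were −2.44 and −5.71 (edgeR adjusted p = 0.0197 and 0.00155). In In Gfp- that fit called many more mutants depleted than the fit on both tags, as given at the end. Its shares of all mutants are not given here, so nothing is read from these UPTAG calls. With the replicate number as a block, neither call held (edgeR adjusted p = 0.0518 and 0.100). The uninduced call was lost without replicate 1, which leaves libraries of one instrument model (edgeR adjusted p = 0.296), and without replicate 2 (0.161), and the induced call without replicate 1 (log2 fold change −2.61, edgeR adjusted p = 0.400).

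The share of *sub1*Δ before sorting was not resolved between induced and uninduced cultures. The edgeR log2 fold change was −0.38 ± 0.57 (SE, n = 3 against 3; adjusted p = 1.00) on both tags, and −0.077 ± 0.25 on UPTAG reads alone. On both tags, the CPM was lower with α-factor in replicates 1 and 2 and higher in replicate 3, and on UPTAG totals it was lower in all 3. By edgeR, 0% of 3555 mutants passed this comparison and 37 had an unadjusted p under 0.05, and DESeq2 called 0. In Gfp- against Un Gfp- gave −1.25 ± 1.79 (SE, n = 3 against 3; edgeR adjusted p = 1.00) on 1 read against 4, where 0.169% of 3555 mutants passed in either direction. The depletion in induced cells minus that in uninduced cells was −1.73 ± 2.13 on the log2 scale (SE, n = 12 libraries; edgeR adjusted p = 0.879), a difference that 5 sorted reads did not resolve. By edgeR, 0% of 3412 mutants passed this test and 342 had an unadjusted p under 0.05, while DESeq2 called 88.

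Mutants of known position in the pathway stood on both sides. The 4 control deletions rose relative to the bulk of mutants. They lack *STE4* (the β subunit of the pheromone receptor's G protein), *STE5* (the scaffold of the kinase cascade), *STE11*, and *STE7* (its kinases). On the log2 scale they rose by 9.19 to 9.39 without α-factor and by 9.26 to 9.50 with it. All 4 passed the edgeR test in both pools. Their shares of reads rose by less. For example, *ste4*Δ had 409, 285, and 330 CPM in Un presort against 5888, 7118, and 5928 in Un Gfp-. Of the MAP kinase mutants, *hog1*Δ, lacking the osmotic stress MAP kinase, had log2 fold changes of −0.83 without and −1.24 with α-factor. Neither passed the edgeR test (adjusted p = 0.172 and 0.133). *kss1*Δ, lacking a MAP kinase of the filamentation pathway, rose relative to the bulk of mutants by 3.88 and by 3.50 (edgeR adjusted p = 0.000451 and 6.29e-05). Its share of reads was lower after sorting, at 24.7, 24.1, and 21.3 CPM in Un presort against 8.60, 10.4, and 15.6 in Un Gfp-, and at 23.9, 26.2, and 18.3 in In presort against 4.64, 4.41, and 0 in In Gfp-. *fus3*Δ, lacking the mating MAP kinase, had at most 59 reads in any presorted library and did not reach the minimum of 50 on average.

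None of the 3 tested deletions next to *SUB1* passed the edgeR test in either pool. *msn2*Δ, lacking a stress-response activator, had log2 fold changes of −0.32 and −0.71. *yet2*Δ had −0.57 and 1.26, and *ccs1*Δ, lacking the copper chaperone of superoxide dismutase, had 0 reads in every sorted library but 1 induced one, which had 6. *ara2*Δ had at most 1 read in any library. Of 11 deletions of factors linked to Sub1, 2 had enough reads. *rtt103*Δ, lacking a termination factor that binds the polymerase tail, had −2.61 (edgeR adjusted p = 0.0589) without and −0.10 with α-factor. *pbs2*Δ, lacking the kinase that activates Hog1, had 0 reads in all 6 sorted libraries against 43 to 81 in Un presort and 9 to 177 in In presort. It did not pass the edgeR test in either pool (adjusted p = 0.112 and 0.0645).

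The mutants most like *sub1*Δ over the 12 libraries were *scm4*Δ, *ntg1*Δ, *oaf1*Δ, *yer135c*Δ, and *seo1*Δ, with Pearson r of 0.989, 0.987, 0.984, 0.983, and 0.982 of log2 CPM among 3412 mutants. These values describe libraries that share depth and the strong contrast of sorting, and 24 mutants had an r above 0.9. Of the 5, all but *yer135c*Δ had 0 DNTAG reads in every library, as *sub1*Δ had. *scm4*Δ, for example, had 841, 455, and 171 reads before and 5, 3, and 0 after sorting of uninduced cells. In induced cells it had 1415, 401, and 118 before and 0, 0, and 1 after. The log2 fold change of *scm4*Δ was −1.80 in Un Gfp- (edgeR adjusted p = 0.146) and −4.79 in In Gfp- (0.0106). Of the 5 mutants, 0 were called depleted in Un Gfp- and 4 in In Gfp-, a description only, since these libraries chose them.

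*RNA over the SUB1 locus.* In wild type, *SUB1* RNA was abundant and continuous over the 9-bin run in all 4 conditions. Read totals over the run were 4409 in vegetative cells, 3988 with α-factor, 3493 in fresh medium, and 4060 in 1 M sorbitol. The mean deposited value per bin, on a scale common to all libraries, was 410.4, 464, 375, and 432 in that order. These levels were 3.77, 5.04, 3.77, and 4.60 times the median bin of the library, and between 88.0% and 89.9% of listed bins were lower. *SUB1* RNA thus lay above most bins in each library.

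In *sub1*Δ, the same bins held 4, 4, 2, and 3 reads in the same order of conditions. The ratio to wild type was 0.00114 (95% interval 0.000311 to 0.00293) in vegetative cells and 0.000975 (0.000265 to 0.00250) with α-factor. It was 0.000610 (7.38e-05 to 0.00220) in fresh medium and 0.000888 (0.000183 to 0.00260) in sorbitol. All 9 bins were lower past a log2 ratio of 1 in each pair, as the choice of the run requires. Among bins at or above the median bin, 2.17%, 0.601%, 3.31%, and 0.918% were lower in *sub1*Δ by that measure, in the order vegetative, α-factor, fresh medium, and sorbitol.

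**Figure D2:**
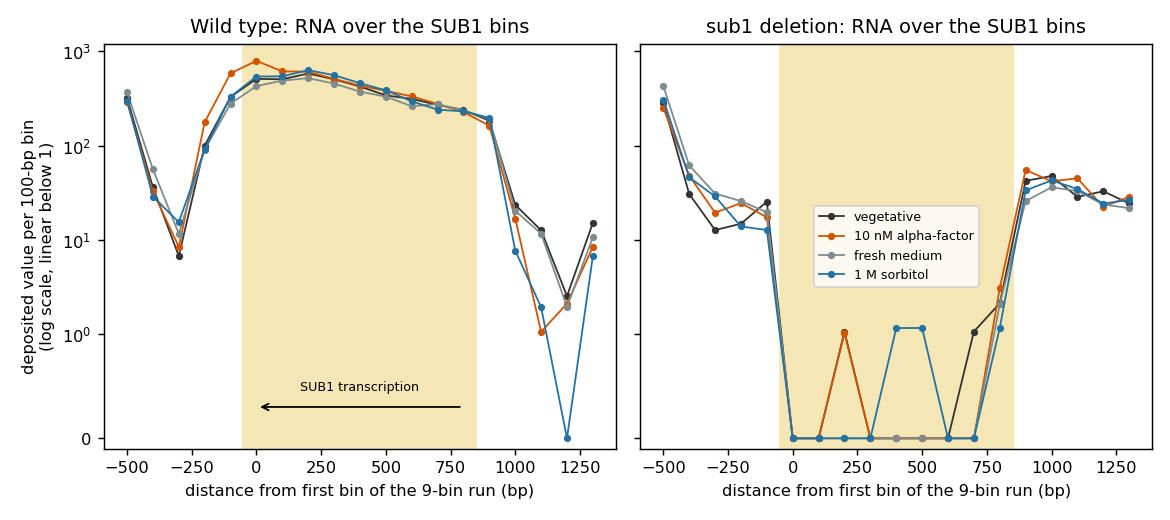
Deposited RNA value per 100-bp bin (y axis, log scale that is linear below 1) over the 19 bins in wild type (left) and *sub1*Δ (right), by distance in bp from the first bin of the 9-bin run (shaded). Each line is 1 library. Wild-type libraries hold 217 to 757 reads in each bin of the run and *sub1*Δ libraries 0 to 3.

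The wild-type transcript extended past the run on both sides. The bins at 348.5 and 348.6, toward the 3′ end, held 119 and 392 reads in vegetative wild type, and the bin at 349.6, toward the 5′ end, held 219. Coverage was not even. Within the run it was lowest at the 5′ end, with 241 to 285 reads at 349.5 in the 3 wild-type libraries without α-factor, and reached 539 to 696 at 348.9 in these libraries. With α-factor the highest bin was instead 348.7, with 757 reads.

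The α-factor library differed from the vegetative one at the 3′ end of *SUB1* more than over the run as a whole. Over the run, the ratio of α-factor to vegetative values was 1.13 (95% interval 1.08 to 1.18) on the deposited scale. The median bin had a ratio of 0.844 between these libraries, a shift of −0.24 on the log2 scale, and relative to it the run was 1.34 times higher (1.28 to 1.40). At 348.5 the ratio was 1.78 (1.40 to 2.27), at 348.6 1.78 (1.57 to 2.04), and at 348.7 1.55 (1.39 to 1.73). At 348.8 it was 1.21 (1.08 to 1.36). From 348.9 to 349.6 the ratios lay between 0.885 and 1.12 on the deposited scale, and the interval of each of these 8 bins included 1. All of these ratios were above the 0.844 of the median bin. No bin of the run passed a log2 ratio of 1, a size that 8.44% of bins at or above the median bin reached in either direction. Taking the 12 bins from 348.5 to 349.6 as the transcript, the 3 bins at its 3′ end held 30.5% of its reads with α-factor (95% interval 29.2 to 31.8). They held 21.8% (20.7 to 23.0) in vegetative cells, 20.3% (19.1 to 21.6) in fresh medium, and 21.4% (20.2 to 22.6) in sorbitol. The α-factor library thus stood apart from the other 3 in the shape of the transcript, by more than counting error, and with 1 library per condition its spread between cultures is unknown. This share was not computed for other genes, so whether the shape is particular to *SUB1* or common in that library was not tested.

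**Figure D3:**
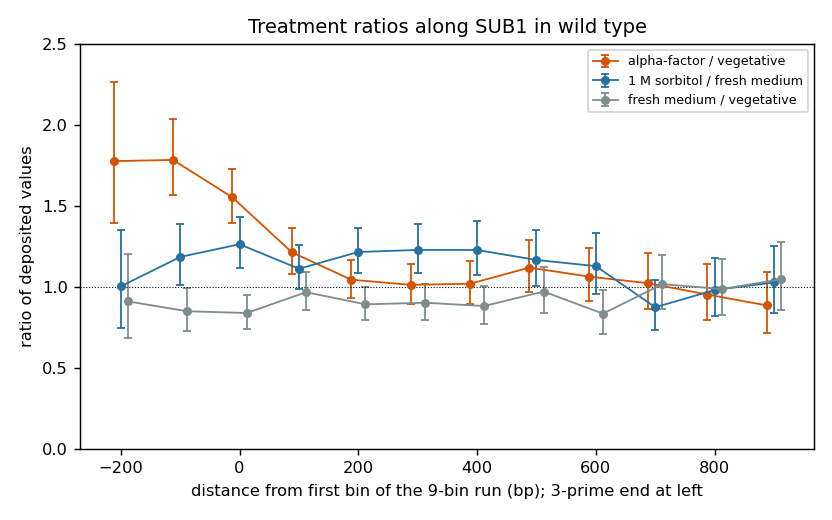
Ratio of deposited RNA values (y axis) between wild-type libraries in the 12 bins of the transcript (x axis, distance in bp from the first bin of the run, 3′ end at left). Bars are exact binomial 95% intervals. The ratio of α-factor to vegetative cells is 1.78 at the 3′ end and 0.885 at the 5′ end.

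Sorbitol and the change of medium gave flatter ratios along the transcript, though over the run the sorbitol ratio was not below the 1.13 of α-factor. The run was 1.15 times higher in sorbitol than in fresh medium (95% interval 1.10 to 1.21), and 1.26 was the highest ratio of any of the 12 bins. In fresh medium it was 0.913 times the vegetative level (0.873 to 0.954). Relative to the median bin these were 1.21 (1.16 to 1.27) and 0.972 (0.929 to 1.02). No bin of the run passed a log2 ratio of 1 in either comparison, where 3.8% and 1.44% of bins at or above the median bin did. The levels of the 4 wild-type conditions were ordered as vegetative above fresh medium and both below sorbitol and α-factor, within a range of 1.24-fold. Whether neighbours in that order differ beyond the spread between cultures cannot be told from single libraries.

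Outside the run, the strains differed in other ways. Upstream of *SUB1*, the 4 bins from 349.7 to 350.0 were close to empty in wild type and covered in *sub1*Δ. Wild type had 64, 27, 46, and 17 reads there in vegetative cells, α-factor, fresh medium, and sorbitol, and *sub1*Δ had 126, 135, 111, and 111. The ranges of the strains did not overlap, but each spans 4 treatments with 1 library each and was not set against other bins. The ratio of *sub1*Δ to wild type was 2.48 (95% interval 1.82 to 3.40) in vegetative cells and 4.86 (3.20 to 7.64) with α-factor. It was 2.57 (1.81 to 3.71) in fresh medium and 7.84 (4.68 to 13.9) in sorbitol. The bins past a log2 ratio of 1 numbered 2, 4, 2, and 4 of the 4 upstream bins in that order. Among bins with a value of at least 10 in either strain, 3.4%, 2.63%, 1.37%, and 4.44% were higher in *sub1*Δ by that measure. This minimum was set after the values were seen, and wild type itself reached it in 3, 1, 3, and 0 of the 4 bins, so nothing is read from the count against these shares. The largest single difference among these bins in the α-factor pair was at 349.8, where wild type had 1 read and *sub1*Δ 44 with α-factor. The *kanMX* cassette lies between these bins and the 3′ flank in *sub1*Δ and is not in the reference sequence. The bins do not separate strands, so the strand of these reads was not determined. Whether they run toward *SUB1* or toward *YET2*, the next gene on this side, is thus not known.

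**Figure D4:**
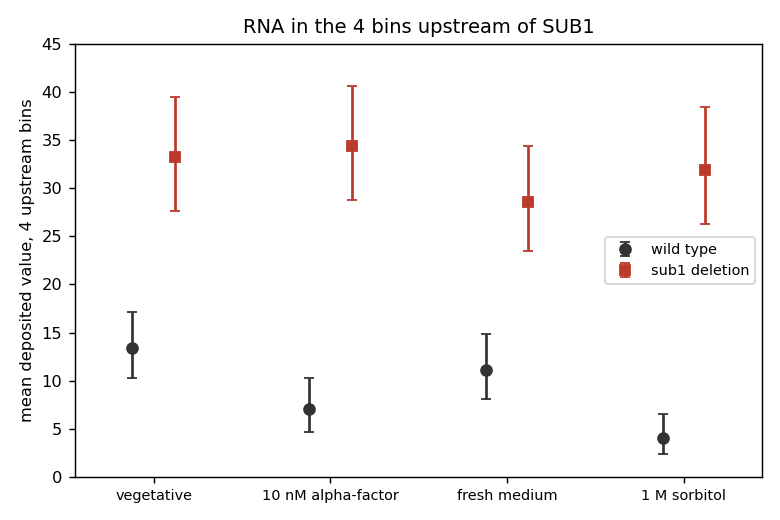
Mean deposited RNA value of the 4 bins upstream of *SUB1* (y axis) in wild type and *sub1*Δ by treatment (x axis), 1 library per point, with exact Poisson 95% intervals for counting error. Wild type has 17 to 64 reads and *sub1*Δ 111 to 135.

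Within wild type the upstream bins were lower after both treatments, at 0.528 times the vegetative value with α-factor (95% interval 0.324 to 0.840) and 0.367 times the fresh-medium value in sorbitol (0.197 to 0.652). In *sub1*Δ the ratios were 1.03 (0.806 to 1.33) and 1.12 (0.852 to 1.47). The bin at 349.6 kept 54 of its reads in *sub1*Δ with α-factor against 155 in wild type, and 25 to 40 against 199 to 219 in the other pairs.

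Toward *CCS1*, less was seen. The bins at 348.5 and 348.6 kept 23 to 44 reads in *sub1*Δ against 383 to 728 in wild type, ratios of 0.0547 to 0.122. The bins at 348.3 and 348.4 were near the lowest point between the genes in wild type, with 39 to 70 reads, and had 41 to 90 in *sub1*Δ. There the ratio of *sub1*Δ to wild type was 1.01 (95% interval 0.654 to 1.56) in vegetative cells and 1.64 (1.09 to 2.51) with α-factor. It was 1.37 (0.991 to 1.90) in fresh medium and 1.70 (1.15 to 2.53) in sorbitol. The bin at 348.2, where coverage rises again toward *CCS1*, had 279 to 383 reads in wild type and 248 to 416 in *sub1*Δ. Its ratios ran from 0.864 to 1.16.

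*Binding of Sub1 at its own gene.* Tagged Sub1 was found on both sides of *SUB1*, in 2 maxima around a body with lower signal. Values were divided by the median bin of each library, and a bin was called bound at 2 times the untagged library, which lay between 0.77 and 1.23 times its own median in all 19 bins. The upstream side is shared with *YET2*, and signal on it was not assigned to either gene. Upstream, the signal was highest at 349.7 and 349.8. There the α-factor control reached 3.93 and 3.76 times the median bin, the α-factor library 3.94 and 4.43, and the library titled sorbitol control 4.42 and 4.59. Against the untagged library, the ratio at 349.7 was 4.53 (95% interval 3.80 to 5.44) in the α-factor control, 4.55 (3.83 to 5.43) with α-factor, and 5.10 (4.29 to 6.09) in the library titled sorbitol control. Between 98.2% and 98.8% of all bins had a lower ratio in these libraries. Among bound bins, whose median ratio was 2.56 to 2.65, 85.4% to 90.4% were lower.

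The other maximum was at 348.5, the last bin taken as transcript toward *CCS1*, which lies on the same strand. There the signal was 2.92, 3.26, and 3.70 times the median bin in the α-factor control, with α-factor, and in the library titled sorbitol control. The ratios to the untagged library were 3.57 (95% interval 2.96 to 4.33), 3.99 (3.34 to 4.80), and 4.54 (3.79 to 5.46). The tagged strain carries *kanMX* with the tag, so the sequence near the 3′ end of *SUB1* differs from that of the untagged strain. Any bearing of this on the maximum at 348.5 was not tested. From 348.7 to 349.3, over the body of the gene, the same 3 libraries lay between 0.903 and 1.53 times the median bin, with ratios to the untagged library of 0.800 to 1.69. The signal was thus lowest over the bins that carry most *SUB1* RNA.

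**Figure D5:**
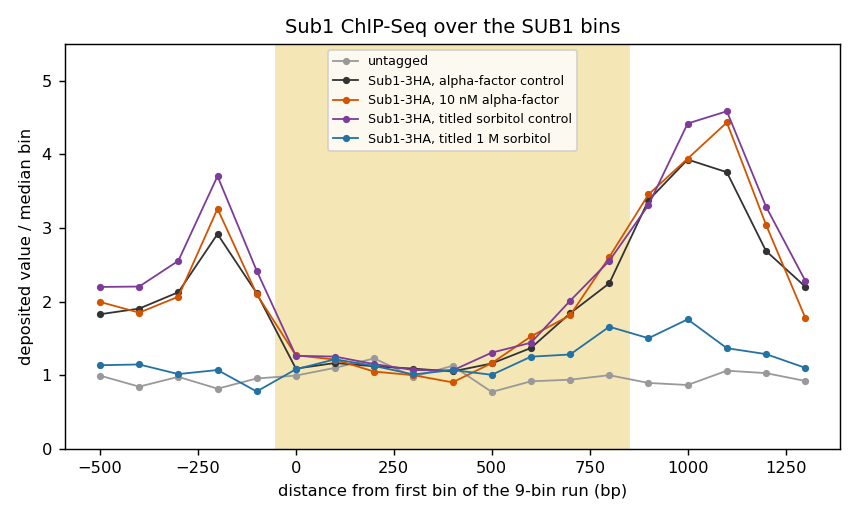
ChIP-Seq value divided by the median bin of each library (y axis) over the 19 bins, by distance in bp from the first bin of the 9-bin run (x axis, run shaded). Each line is 1 library. The highest values are 4.59 upstream and 3.70 at the other end, and the untagged library stays between 0.77 and 1.23.

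Of the 19 bins, 10 were bound in the α-factor control, 10 with α-factor, and 12 in the library titled sorbitol control. Over all bins, 11.4%, 12.2%, and 12.9% were bound in these libraries. With the deposited total in place of the median bin, 4, 4, and 5 of the 19 bins were bound. The shares above do not apply to that scale, and its own share over all bins is not given here. In the library titled 1 M sorbitol, 1 of the 19 bins was bound, against 1.43% of all bins. It was the bin at 349.7, at 1.76 times the median bin and 2.03 times the untagged library (95% interval 1.68 to 2.47). At 348.5 that library had 1.07 times the median bin.

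At the maxima, the α-factor library was close to its control. The ratio of the α-factor library to its control was 1.00 (95% interval 0.904 to 1.11) at 349.7, 1.18 (1.06 to 1.31) at 349.8, and 1.12 (0.993 to 1.26) at 348.5, where the median over 16699 bins bound in either library was 1.07. Over the 19 bins the ratios ran from 0.809 to 1.18. The 2 untreated tagged libraries differed by as much, with ratios of sorbitol control to α-factor control of 1.12 (1.01 to 1.25), 1.22 (1.10 to 1.36), and 1.27 (1.13 to 1.43) at the same bins, if the titles are right. The library titled 1 M sorbitol was 0.398 (0.350 to 0.452), 0.298 (0.259 to 0.342), and 0.289 (0.247 to 0.337) times the library titled sorbitol control at 349.7, 349.8, and 348.5. The median over 15931 bins bound in either of these libraries was 0.465, so bound bins as a whole were lower in the library titled 1 M sorbitol, and 30.6%, 11.7%, and 10.6% of those bins had a lower ratio. Over the 19 bins, the library titled sorbitol control had a Pearson r of 0.984 with the α-factor control, the other untreated tagged library, and the library titled 1 M sorbitol had an r of 0.594 with it. These bins are neighbours in the same few libraries, and the values describe likeness only. With the treatment texts in place of the titles, the ratios above would be a gain in sorbitol.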

How the data were processed

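For Bar-Seq, the authors deposited raw counts of barcode reads per mutant, aligned with Bowtie2. Of 48 columns, 24 matched single samples by name. The other 24, which hold the remaining sorted pools, were not analysed here. UPTAG and DNTAG counts were summed per replicate. Mutants with a mean of at least 50 presorted reads were tested with edgeR 4.0.16 in R 4.3.3 (TMM, quasi-likelihood, two-sided, Benjamini-Hochberg, adjusted p of 0.05), and DESeq2 1.42.0 was an alternative. The p-values measure the spread between the sequenced replicates.

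RNA-Seq (poly(A)) and ChIP-Seq reads were aligned to SacCer2 by the authors, also with Bowtie2. The deposited signal in each 100-bp bin is on a scale with equal sums for all libraries of an assay and is not separated by strand. How reads were assigned to bins is not given in the sources used here. Dividing by the smallest value of a library gave whole numbers in 100% of bins (tolerance 0.02), used as reads. Bins without reads are not listed and were taken as 0. Bins were called past a log2(value + 1) ratio of 1. A floor at the median bin was used, and for the upstream bins a floor of 10, set after their values were seen. Ratios over several bins used mean values without a pseudocount. Python 3.11.15 with scipy 1.17.1 was used, and scripts were tested on simulated data.

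The members, gene lists, and comparisons were chosen with earlier results of these data known. Named mutants were *sub1*Δ, deletions of its 4 neighbours, mutants with raised basal reporter expression, 11 factors linked to Sub1, 4 *STE* controls, and the 5 mutants most like *sub1*Δ. Alternatives were other scaling, filters, pseudocounts, spans, thresholds, tags, tools, a replicate block, and each replicate left out.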

Additional observations from a re-analysis of the deposited data

Results flagged for a closer look

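On the deposited scale, some flanking bins of *SUB1* had treatment ratios on opposite sides of 1 in wild type and in *sub1*Δ. With 1 library per strain and treatment, these differences were not tested. In the 4 upstream bins, α-factor gave 0.528 times the control value in wild type and 1.03 times in *sub1*Δ, and sorbitol gave 0.367 times the fresh-medium value in wild type and 1.12 times in *sub1*Δ. In the bin at 349.6 kb, α-factor gave 0.885 in wild type and 1.30 in *sub1*Δ, and in the bins at 348.3 and 348.4 kb it gave 0.957 and 1.55. The 95% intervals of the upstream ratios in *sub1*Δ, of the ratios at 349.6 in both strains, and of the wild-type ratio at 348.3 and 348.4 (0.614 to 1.48) included 1. Relative to the median bin, a scaling added after seeing the data, the ratios at 349.6 were 1.05 and 1.40 and those at 348.3 and 348.4 were 1.13 and 1.67, so these were on the same side of 1 in both strains. The upstream ratios were then 0.625 and 1.11 with α-factor and 0.385 and 1.03 in sorbitol.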

How the results depend on the processing

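The depletion of *sub1*Δ kept its direction under every alternative run, with log2 fold changes of −8.19 to −2.44 in Un Gfp- and −11.51 to −2.61 in In Gfp-. With replicate 1, 2, or 3 left out, they ranged from −3.31 to −2.56 in Un Gfp- and from −11.51 to −2.61 in In Gfp-. With 5 sorted reads and a negative median over all mutants, the kept direction says little. The sizes depend on the handling of counts near 0. Replicate 1 differs from the others in instrument model. Deviations of same-numbered libraries from their group means had correlations of 0.220, 0.00138, and 0.290 for Un Gfp- with its presort. For In Gfp- with its presort they were −0.056, −0.079, and 0.064. Between the presorted groups they were 0.574, −0.632, and −0.671, and between the sorted ones −0.073, 0.109, and 0.075. Both tags were counted, and the UPTAG gave 54.7%, 67.4%, and 20.2% of reads in Un presort and 38.6%, 20.7%, and 56.3% in In presort. The correlations cannot tell an instrument effect from this mix of tags, and neither was tested. With the replicate block, the values were −3.01 (edgeR adjusted p = 0.0518) and −4.29 (0.100), and counts of depleted mutants were 98 and 12 against 180 and 359. The block values of the other comparisons were −0.37, −1.56, and −1.57. DESeq2 called 401 and 689 mutants depleted, total counts without TMM factors 3199 and 3330, with median fold changes of −5.32 and −6.17, and UPTAG reads only 1598 in In Gfp-. On UPTAG reads and totals the presorted ratio of shares, In over Un, was 0.895 against 0.612 on both tags. A fit on DNTAG reads gave no value because *sub1*Δ has none, and the DESeq2 adjusted p of In Gfp- against Un Gfp- is NA. Without 1 replicate, In presort against Un presort ranged from −1.23 to 0.44, In Gfp- against Un Gfp- from −4.47 to 0.31, and the difference of depletions from −8.22 to 0.65. The sign turned without replicate 2 in the first (0.44) and without replicate 1 in the others (0.31 and 0.65), and the cause was not tested. Promoter motifs and the other sorted pools were not run.

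The wild-type RNA log2 ratios were 0.42 (α-factor), 0.28 (sorbitol), and −0.041 (fresh medium) with median-of-ratios scaling, against 0.18, 0.21, and −0.13 as reported, which follows from the shift of the median bin. Over the inner 7 bins, α-factor gave 0.10, and the level in *sub1*Δ in fresh medium was 0. Without the floor, 6.62% (sorbitol) and 3.91% (fresh medium) of bins passed the fold. With the deposited total, the strongest ChIP bin was 3.18 (α-factor control), 2.92 (α-factor), and 3.62 (titled sorbitol control) times the untagged library, and 4, 4, and 5 bins were bound, with 0 in the library titled 1 M sorbitol. At 4 times the untagged library, 1, 2, 3, and 0 bins were bound in the same order. The shares of all bins bound under these settings are not given here, so nothing is read from these counts. Summed over 3 bins, the library titled 1 M sorbitol gave 1.64. Median-of-ratios scaling, added after the values were seen, gave upstream ratios of 2.44 to 6.73. In the sorted Bar-Seq pools *sub1*Δ has 5 reads in all.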
